A study of Mus musculus with 20 samples.

Results

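The genes described here were 9 genes of the platelet and of its parent cell, the megakaryocyte, among 23420 genes counted in mouse heart. They were *Gp1ba*, *Gp1bb*, *Gp9*, *Gp6*, *Itga2b*, *Itgb3*, *Pf4*, *Ppbp* and *Treml1*, and each was taken as the row of the count table that carries its symbol. The members were selected for their function in platelets, and were in part chosen by the measured rise of *Gp1bb* in the iron-deficient hearts, so the difference between diets in *Gp1bb* is given as a description, with no test. The other members were tested in the same fit as all genes, but, as shown further on, most of them rose and fell with *Gp1bb* from mouse to mouse, so their tests are not independent of that choice.

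RNA was sequenced from whole hearts of 20 male wild-type C57BL/6 mice, given as C57BL/6J in the study's methods, at 9 weeks of age. For the last 6 weeks, since weaning, 10 control mice had received a control diet and 10 IDA (iron-deficiency anemia) mice a diet deficient in iron. Both groups were wild type and differed by diet alone, with no transgene or other treatment. The hearts were washed in phosphate-buffered saline and snap frozen, and no step that clears the vessels of blood is given in the sources used here. The libraries held 6797180 to 8960688 counted read pairs in control and 6682177 to 7833916 in IDA mice. Values are CPM, the pairs of a gene in 1000000 counted pairs, scaled by the trimmed mean of M values (TMM). The 7 cardiomyocyte markers looked up summed to 3812 to 4639 CPM in control and 3354 to 4717 CPM in IDA mice. Duplicates had been removed before counting, and *Actc1*, 1 of these markers, had 2500 to 2575 pairs in control and 2490 to 2554 in IDA libraries. Such counts hardly follow library size, so the sum is not read as the share of muscle RNA.

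Platelets are cell fragments without a nucleus that megakaryocytes shed, mainly in bone marrow and lung, and they carry messenger RNA made by the megakaryocyte. At a vessel wall they attach to von Willebrand factor through the glycoprotein Ib-IX-V complex, bind collagen through glycoprotein VI, and then bind fibrinogen through the integrin αIIbβ3 and release their granules. These receptors are not characteristic of heart muscle cells. In bulk samples such as these, fewer cells of a type and less RNA per cell cannot be told apart, and the same holds for more.

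The GATA factors, chiefly GATA1 in this lineage, bind short GATA words near many megakaryocyte genes. Promoters from 250 bases before to 50 bases after the start site were looked up in RefSeq (GRCm38.p6) and found for 8 of the 9 members, *Itgb3* being the member without an entry. The word GATAA, or TTATC on the other strand, was present in 4 of these 8, namely *Gp1ba*, *Gp6*, *Gp9* and *Pf4*, and in 25.4% of all 32851 promoters of the same length. The promoters below are those of the 3 members that encode subunits of the glycoprotein Ib-IX-V complex and of *Itga2b*, written 5′ to 3′ on the gene's strand with each GATAA or TTATC in capitals. They are shown because *Gp1ba* and *Gp1bb*, subunits of a single receptor, had the smallest and the largest log2 fold change among the members tested.
Gp1ba, chr11:70638872-70639171, plus strand: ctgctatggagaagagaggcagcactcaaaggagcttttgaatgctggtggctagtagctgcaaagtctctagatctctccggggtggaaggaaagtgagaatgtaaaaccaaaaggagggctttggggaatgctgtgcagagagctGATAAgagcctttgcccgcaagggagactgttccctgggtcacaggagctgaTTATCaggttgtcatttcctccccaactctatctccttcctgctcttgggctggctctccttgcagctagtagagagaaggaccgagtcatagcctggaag
Gp9, chr6:87777820-87778119, plus strand: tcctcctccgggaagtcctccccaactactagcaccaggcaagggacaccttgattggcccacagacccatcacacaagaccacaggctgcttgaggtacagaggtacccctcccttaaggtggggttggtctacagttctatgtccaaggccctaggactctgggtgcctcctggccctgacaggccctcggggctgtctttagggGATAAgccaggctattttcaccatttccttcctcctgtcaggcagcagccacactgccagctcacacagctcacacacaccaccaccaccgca
Gp1bb, chr16:18622354-18622653, minus strand: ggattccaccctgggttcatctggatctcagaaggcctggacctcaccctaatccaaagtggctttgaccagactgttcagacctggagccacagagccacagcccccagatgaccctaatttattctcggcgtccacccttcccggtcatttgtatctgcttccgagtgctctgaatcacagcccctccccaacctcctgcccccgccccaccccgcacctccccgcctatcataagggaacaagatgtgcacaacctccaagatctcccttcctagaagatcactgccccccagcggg
Itga2b, chr11:102469834-102470133, minus strand: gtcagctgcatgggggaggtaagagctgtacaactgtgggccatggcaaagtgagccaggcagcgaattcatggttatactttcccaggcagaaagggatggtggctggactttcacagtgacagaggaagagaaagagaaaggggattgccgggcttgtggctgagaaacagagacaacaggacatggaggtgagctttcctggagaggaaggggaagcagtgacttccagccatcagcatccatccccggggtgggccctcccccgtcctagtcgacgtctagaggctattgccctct
The *Gp1ba* window held 2 GATAA words and the *Gp9* window 1, and the *Gp1bb* and *Itga2b* windows held none. Other GATA words were not searched, and both the *Gp1ba* and the *Gp1bb* window hold CTATC, which is GATAG on the other strand. The word GGAAG, or CTTCC on the other strand, which ETS factors such as FLI1 bind, was present in all 8 promoters and in 71.4% of all promoters. A word is a description of these letters alone and not a bound site.

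Across all genes, 9176 of 13590 tested genes, or 67.5%, differed between the diets (edgeR, quasi-likelihood F test, Benjamini-Hochberg adjusted p below 0.05). That background comprised 4760 genes (35%) that were higher in IDA mice and 4416 (32.5%) that were lower. A gene was tested if it reached 1 CPM in at least 10 mice, which 8 of the 9 members did. *Gp6* did not, and was tested on its own. Of the 7 tested members other than *Gp1bb*, 7 were called higher in IDA mice, beside the background of 35%. Because the members were chosen with the difference in *Gp1bb* known, nothing is read from that count. *Treml1*, 1 of these 7, also passed the filter only with the IDA group, where it is high. As a description, the median log2 fold change of these 7 members was 1.55, and that of all tested genes was 0.02.

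**Figure D1:**
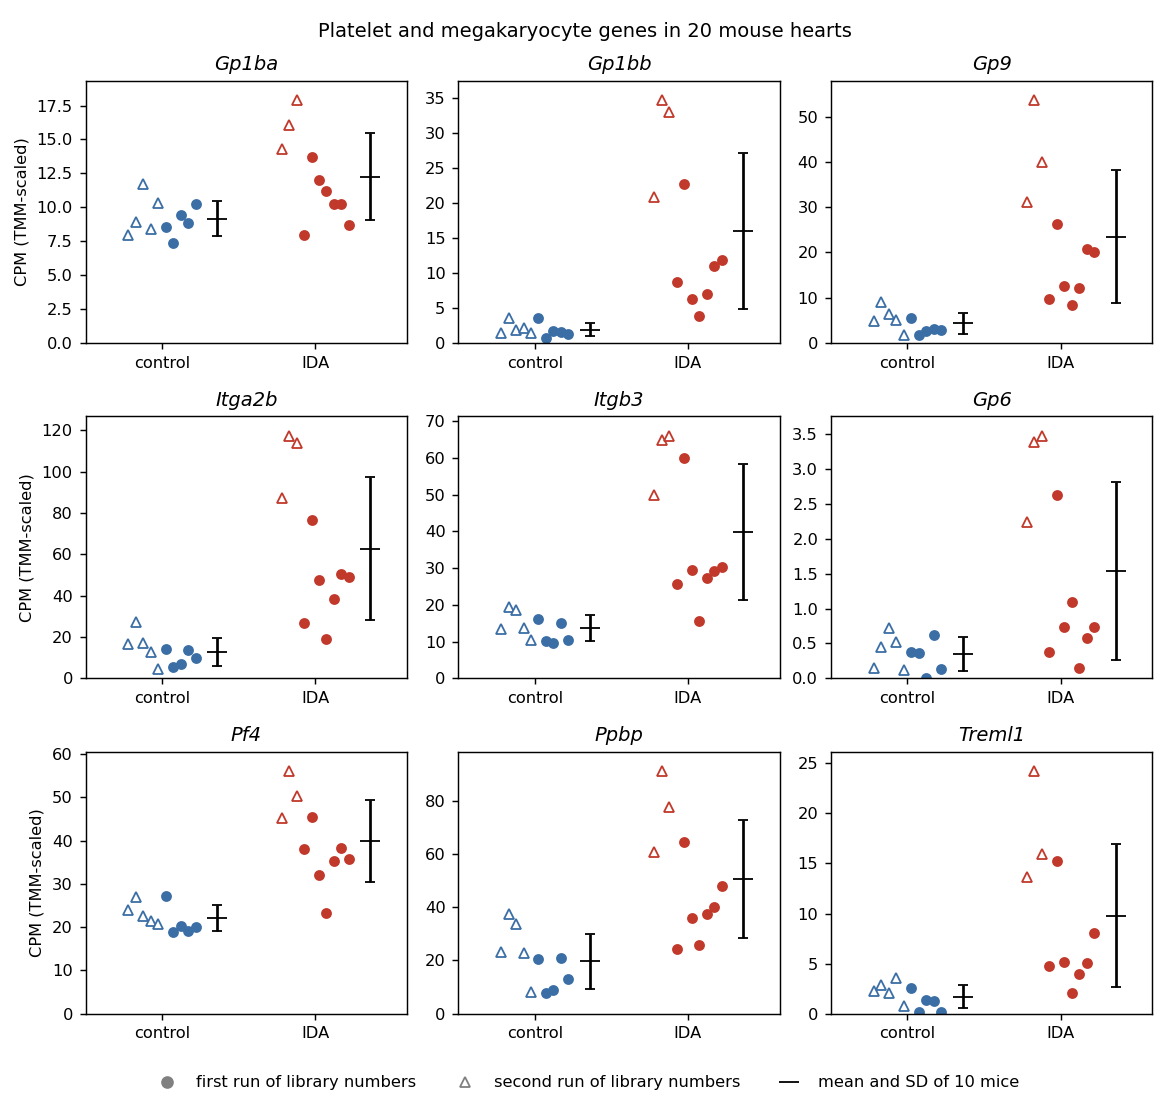
CPM of each of the 9 members (vertical axis, TMM-scaled, each panel on its own linear scale) in the 10 control and 10 IDA hearts. Each point is a mouse, filled circles and open triangles mark the first and the second run of library numbers, and the bar gives the mean and SD of 10 mice. *Gp1bb* is the member with no overlap between the groups, and the same IDA mice stand at the top of every panel.

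The glycoprotein Ib-IX-V complex, the platelet receptor for von Willebrand factor, was represented by 3 members that differed widely in response. *Gp1bb* (chr16:18620319-18622403, minus strand, 1 exon) encodes the β subunit of glycoprotein Ib. It measured 0.737 CPM in the lowest, 1.59 in the median and 3.59 in the highest control heart, and 3.89, 11.4 and 34.7 CPM in the lowest, median and highest IDA heart. Every IDA heart was above every control heart, as was the case for 4.97% of all tested genes. The means were 1.92 ± 0.95 and 16.0 ± 11.2 CPM (SD, n = 10 mice a group), a log2 fold change of 3.07 ± 0.39 (SE), which placed *Gp1bb* at rank 5 of 13590 genes. These values rest on 6 to 29 read pairs in a control and 25 to 266 in an IDA library. *Gp1bb* reached 1 CPM in 9 of 10 control mice and so passed the expression filter only with the IDA group, where it is high.

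*Gp9* (chr6:87778136-87779762), which encodes the small glycoprotein IX of the same complex, rose as well. Its lowest, median and highest values were 1.72, 4.03 and 9.10 CPM in control and 8.40, 20.4 and 53.6 CPM in IDA mice. The highest control heart lay above the lowest IDA heart, and 9 of 10 IDA hearts were above every control heart. The means were 4.31 ± 2.33 and 23.5 ± 14.6 CPM (SD, n = 10 a group), and the log2 fold change was 2.47 ± 0.34 (SE, edgeR adjusted p = 2.13e-06).

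*Gp1ba* (chr11:70639122-70642055) encodes the α subunit, the part of the complex that touches von Willebrand factor. It ran from 7.37 CPM over a median of 8.89 to 11.7 CPM in control, and from 7.99 over 11.6 to 17.9 CPM in IDA mice. The groups overlapped, with 8 of 10 control hearts above the lowest IDA heart, while 5 of 10 IDA hearts were above every control heart. The means were 9.17 ± 1.28 and 12.2 ± 3.21 CPM (SD, n = 10 a group), and the log2 fold change of 0.42 ± 0.13 (SE, edgeR adjusted p = 0.00715) was the smallest of the tested members, at rank 1362 of 13590 genes.

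Per length of exon, *Gp1ba* stood at 0.82 ± 0.44 times the level of *Gp9* in control mice and at 0.197 ± 0.095 times in IDA mice (SD, n = 10 a group), with ranges of 0.292 to 1.66 and 0.0892 to 0.396. Over all bases of its row, *Gp1bb* stood at 0.189 ± 0.066 times the level of *Gp9* in control and 0.256 ± 0.061 times in IDA mice, with ranges of 0.106 to 0.311 and 0.180 to 0.349 that overlapped for the most part. *Gp5*, the last subunit of the complex and not a member, went from 2.06 ± 1.22 to 8.0 ± 4.62 CPM, a log2 fold change of 1.98 (edgeR adjusted p = 5.76e-05).

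The count of *Gp1bb* depends on how its locus is annotated. Its single exon shares 593 of 2085 bases with another row on the same strand, and 1492 bases are its own. Per length of those, *Gp1bb* stood at 0.263 ± 0.092 times *Gp9* in control and 0.357 ± 0.085 times in IDA mice (SD, n = 10 a group). That row carries a date, 5-Sep, in place of a gene name, and 11 of its 12 exons have the start and end of an exon of *Sept5* in GENCODE M21, while 9 have those of an exon of *Gm49601*. The authors' counting leaves out pairs that overlap more than 1 gene, so pairs that lie within the shared bases count for neither row. In GENCODE M21 a longer *Sept5* transcript, *Sept5-205*, covers 91.2% of the *Gp1bb* row, so a pair counted for *Gp1bb* cannot be told apart from a pair of that transcript. The row 5-Sep itself went from 12.5 ± 2.12 to 16.7 ± 3.89 CPM (SD, n = 10 a group), a log2 fold change of 0.42 ± 0.12 (SE, edgeR adjusted p = 0.00362). The row 5-Sep stood at 3.50 to 17.8 times the CPM of *Gp1bb* in control and at 0.404 to 3.60 times in IDA mice. From mouse to mouse the rows showed no detectable relation: within IDA mice Pearson's r was 0.11 (permutation p = 0.776, adjusted p = 0.869) and Spearman's rho 0.30 (permutation p = 0.408), and within control mice r was 0.43 (permutation p = 0.205, adjusted p = 0.319) and rho 0.50 (permutation p = 0.144). Leaving out the 2 mice farthest from the median of *Gp1bb* gave r of 0.16 in IDA and 0.05 in control mice.

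**Figure D2:**
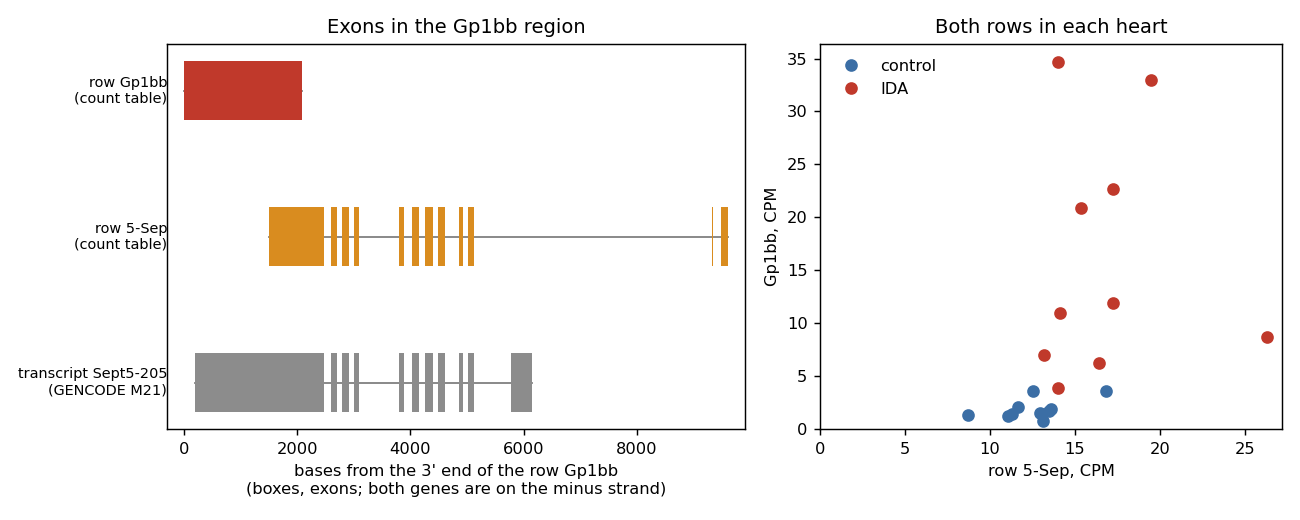
Left, exons (boxes) of the rows Gp1bb and 5-Sep and of the transcript Sept5-205, by distance in bases from the 3′ end of the row Gp1bb. Right, CPM of the row 5-Sep (horizontal axis) and of *Gp1bb* (vertical axis) in each of the 20 hearts, where *Gp1bb* separates the groups and the row 5-Sep overlaps between them.

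*Itga2b* and *Itgb3* encode the α and β chains of the integrin αIIbβ3, the fibrinogen receptor. *Itga2b* (chr11:102453297-102469883, minus strand), a marker of the megakaryocyte line, ran from 4.66 CPM over a median of 13.4 to 27.3 CPM in control and from 19.0 over 49.7 to 117 CPM in IDA mice. A single control heart exceeded the lowest IDA heart. The means were 12.9 ± 6.77 and 62.7 ± 34.6 CPM (SD, n = 10 a group), and the log2 fold change was 2.30 ± 0.33 (SE, edgeR adjusted p = 2.4e-06). It was also the member with the most read pairs in IDA mice, 122 to 918 a library.

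*Itgb3* (chr11:104608000-104670471, plus strand), whose β3 chain also pairs with another α chain in endothelial and other cells, ran from 9.67 over 13.5 to 19.4 CPM in control and from 15.7 over 29.8 to 66.0 CPM in IDA mice. Its means were 13.7 ± 3.56 and 39.8 ± 18.5 CPM (SD, n = 10 a group), with a log2 fold change of 1.55 ± 0.23 (SE, edgeR adjusted p = 3.82e-06). Here 9 of 10 IDA hearts were above every control heart. Per length of exon, *Itgb3* stood at 0.742 ± 0.280 times *Itga2b* in control and 0.404 ± 0.081 times in IDA mice.

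*Gp6* (chr7:4368713-4397744, minus strand), which encodes the collagen receptor glycoprotein VI, was the scarcest member. It had 0 to 5 read pairs in a control library and 1 to 28 in an IDA library. In CPM the lowest, median and highest values were 0, 0.37 and 0.722 in control and 0.147, 0.915 and 3.48 in IDA mice. No control heart and 5 of 10 IDA hearts reached 1 CPM, and 7 of 10 IDA hearts were above every control heart. The mean was 0.346 ± 0.239 CPM in control and 1.54 ± 1.27 CPM in IDA mice, a difference of 1.19 CPM (two-sided permutation test over the 20 mice, 100000 resamples, p = 0.00398, the single test of its kind). *Fcer1g*, whose product is the signalling partner of glycoprotein VI and is also found in macrophages and mast cells, went from 21.9 ± 2.17 to 30.7 ± 3.98 CPM, a log2 fold change of 0.49 (edgeR adjusted p = 6.7e-06), and was added after its values were seen.

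*Pf4* and *Ppbp* encode chemokines stored in the α granules, platelet factor 4 and pro-platelet basic protein, and lie next to each other on chromosome 5. *Pf4* (chr5:90772435-90773383), which some tissue macrophages also make, ran from 18.8 over 21.04 to 27.1 CPM in control and from 23.2 over 38.3 to 56.1 CPM in IDA mice. Among control mice it varied little, with a coefficient of variation of 13.7%, close to that of *Gp1ba* at 14.0%. The means were 22.1 ± 3.03 and 40.0 ± 9.52 CPM (SD, n = 10 a group), a log2 fold change of 0.86 ± 0.12 (SE, edgeR adjusted p = 1.88e-06).

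*Ppbp* (chr5:90768518-90770060) ran from 7.86 over 20.7 to 37.3 CPM in control and from 24.2 over 44.0 to 91.0 CPM in IDA mice. The control hearts spread far more for *Ppbp* than for *Pf4*, with a coefficient of variation of 52.6%, and 7 of 10 IDA hearts were above all of them. The means were 19.7 ± 10.3 and 50.5 ± 22.2 CPM (SD, n = 10 a group), a log2 fold change of 1.38 ± 0.28 (SE, edgeR adjusted p = 0.000181). Set against *Itga2b* per length of exon, *Pf4* stood at 12.6 ± 6.50 times in control and 4.53 ± 1.90 times in IDA mice, and *Ppbp* at 4.87 ± 0.714 and 2.79 ± 0.635 times.

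*Treml1* (chr17:48359916-48367146, plus strand) encodes a receptor of the TREM family that sits in the α granules and appears on activated platelets. It ran from 0.123 over 1.69 to 3.54 CPM in control and from 2.02 over 6.64 to 24.2 CPM in IDA mice. Among control mice, 4 of 10 lay above the lowest IDA heart, and 9 of 10 IDA hearts lay above every control heart. The means were 1.68 ± 1.16 and 9.80 ± 7.11 CPM (SD, n = 10 a group), a log2 fold change of 2.56 ± 0.45 (SE, edgeR adjusted p = 2.8e-05). It had as few as 1 and at most 27 read pairs in a control library and 13 to 164 in an IDA library. With 7 of 10 control mice at 1 CPM or more, it passed the filter only with the IDA group, where it is high.

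In CPM per kilobase of exon, which allows levels to be compared between genes, the order in control hearts was *Pf4* (37.6 ± 5.16, SD, n = 10), *Ppbp* (18.2 ± 9.58), *Gp9* (5.31 ± 2.87), *Itga2b* (3.75 ± 1.97), *Gp1ba* (3.36 ± 0.471), *Itgb3* (2.37 ± 0.616), *Treml1* (1.38 ± 0.950), *Gp1bb* (0.920 ± 0.456) and *Gp6* (0.300 ± 0.208). In IDA hearts it was *Pf4* (68.0 ± 16.2), *Ppbp* (46.8 ± 20.6), *Gp9* (28.9 ± 18.1), *Itga2b* (18.2 ± 10.1), *Treml1* (8.03 ± 5.83), *Gp1bb* (7.68 ± 5.36), *Itgb3* (6.90 ± 3.20), *Gp1ba* (4.48 ± 1.18) and *Gp6* (1.34 ± 1.10). The ranges of every pair of neighbours overlapped across mice in both groups. Within a mouse, *Pf4* was above *Ppbp* and *Ppbp* above *Gp9* in 10 of 10 mice of each group, whereas *Treml1* was above *Gp1bb* in 5 of 10 IDA mice, *Gp1bb* above *Itgb3* in 6 of 10 IDA mice and *Itga2b* above *Gp1ba* in 6 of 10 control mice. *Gp1ba* went from place 5 in control to place 8 in IDA hearts. The level of *Gp1bb* is understated here, since pairs within the bases it shares count for neither row. With the same counted pairs set against its 1492 own bases alone, *Gp1bb* was 1.29 ± 0.637 in control and 10.7 ± 7.49 in IDA mice (SD, n = 10 a group). That places it above *Treml1* in 9 of 10 IDA mice and 6 of 10 control mice. These values would be too high if pairs that reach into the shared bases were among those counted.

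**Figure D3:**
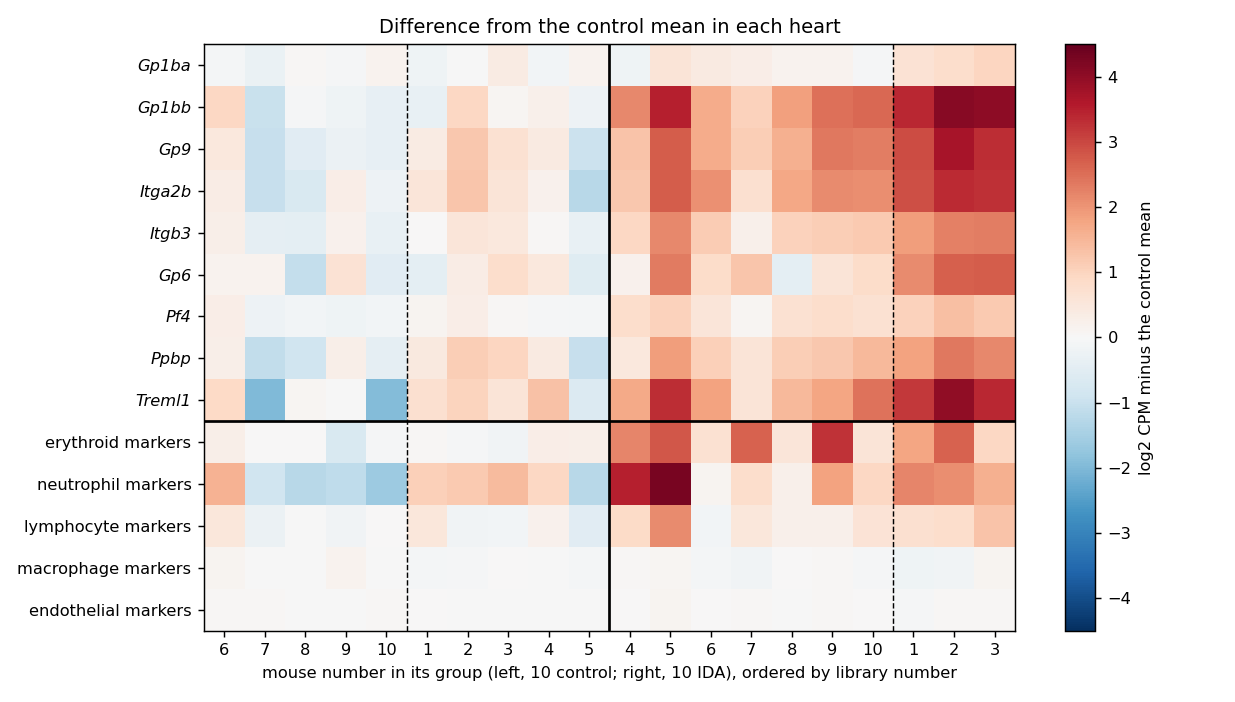
Log2 CPM minus the control mean (colour) of the 9 members and of the mean of 5 marker lists (rows) in each heart (columns, ordered by library number within a group; dashed lines separate the first from the second run). The members are highest together in IDA mice 1, 2, 3 and 5, while the erythroid row is highest in IDA mouse 9 and the neutrophil row in IDA mice 4 and 5.

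Most members varied together from mouse to mouse. IDA mice 1, 2, 3 and 5 held the 4 highest values of the IDA group for 9 of 9 members, and IDA mouse 8 was among the 4 lowest for 9 of 9. Mice 1, 2 and 3 are also the IDA mice of the second run of library numbers, described further on. Among control mice, 2 and 3 were among the 4 highest for 8 members, and 7 and 10 among the 4 lowest for 8. Summed over the 9 members, the level ran from 52.4 over a median of 87.5 to 136 CPM in control and from 110 over 209 to 461 CPM in IDA mice.

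Within the 10 IDA mice, log2 CPM of *Itga2b*, taken as the reference for its number of read pairs after the values were seen, correlated with each of the 8 other members. Pearson's r ran from 0.75 for *Gp6* to 0.97 for *Ppbp*, and was 0.92 and 0.97 for them once the 2 most extreme mice for *Itga2b* were left out, and all 8 had an adjusted permutation p below 0.05 by r and by Spearman's rho, over 28 relations computed. These permutations take no account of the library numbers described further on, by which IDA mice 1, 2 and 3 are set apart. For *Gp9* r was 0.96 (permutation p = 6e-05, adjusted p = 0.00028) and rho was 1.00 (permutation p = 1e-05, the smallest that 100000 resamples can give), and r was 0.96 without those 2 mice. For *Gp1bb* r was 0.94 (permutation p = 0.00018, adjusted p = 0.00072) and rho 0.93 (permutation p = 0.00034), and r was 0.87 without them. For *Gp1ba* r was 0.78 (permutation p = 0.00804, adjusted p = 0.0225) and rho 0.75 (permutation p = 0.0189), and r was 0.92 without them.

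Within the 10 control mice, 3 of the 8 relations with *Itga2b* passed the adjustment, those of *Ppbp*, *Gp9* and *Itgb3*. For *Ppbp* r was 0.97 (permutation p = 1e-05, adjusted p = 0.00014) and rho 0.94 (permutation p = 0.00016). For *Gp9* r was 0.95 (permutation p = 4e-05, adjusted p = 0.00028) and rho 0.93 (permutation p = 0.0003), and for *Itgb3* r was 0.90 (permutation p = 0.00042, adjusted p = 0.00131) and rho 0.88 (permutation p = 0.00148). Without the 2 most extreme mice for *Itga2b* these r were 0.95, 0.90 and 0.90. Values of r for *Pf4*, *Treml1*, *Gp1bb* and *Gp6* were 0.70, 0.68, 0.66 and 0.54 (permutation adjusted p = 0.0529, 0.0614, 0.0703 and 0.188). *Gp1ba* had r of 0.02 (permutation adjusted p = 0.952) and rho of 0.01 in control mice. All values of a mouse share its library, depth and scaling factor. That r for *Gp1ba* differed between the groups was not tested.

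The column names carry consecutive library numbers in 2 runs with a gap between them, the first of 5 control and 7 IDA mice and the second of 5 control and 3 IDA mice, namely IDA mice 1, 2 and 3. In the first run alone, where 58.9% of tested genes were called, 6 of the 7 tested members other than *Gp1bb* were called, and in the second run, where 43.5% were, all 7. The exception was *Gp1ba*, at a log2 fold change of 0.25 ± 0.14 (SE, edgeR adjusted p = 0.137), against 0.75 ± 0.16 (edgeR adjusted p = 0.00467) in the second run. *Gp1bb* had 2.53 ± 0.44 in the former and 3.82 ± 0.26 in the latter run, and *Itga2b* 2.14 ± 0.33 and 2.76 ± 0.32. All 8 log2 fold changes were larger in the second run, but a test of the difference between runs called none of the members, with differences of 0.14 (*Ppbp*) to 1.29 (*Gp1bb*) and, *Gp1bb* left out, edgeR adjusted p of 0.755 to 0.998. That test called 28 of 13590 genes in all, or 0.206%. For *Gp1ba* the difference was 0.51 with a 95% interval of 0.07 to 0.95, and for *Itga2b* 0.63 with an interval of -0.45 to 1.72. Within the 7 IDA mice of the first run, *Itga2b* kept r of 0.92 with *Gp9* (exact permutation p = 0.00218, adjusted over 8 relations 0.00873), with rho 1.00, whereas *Gp1ba* and *Gp6* had r of 0.42 and 0.38 (exact permutation p = 0.339 and 0.403). Of the 8 relations in these mice, 5 had an adjusted p below 0.05 by r and 4 by rho, against 8 by either in all 10 IDA mice. The other combinations of run and group hold 5 mice or fewer, too few for a correlation.

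**Figure D4:**
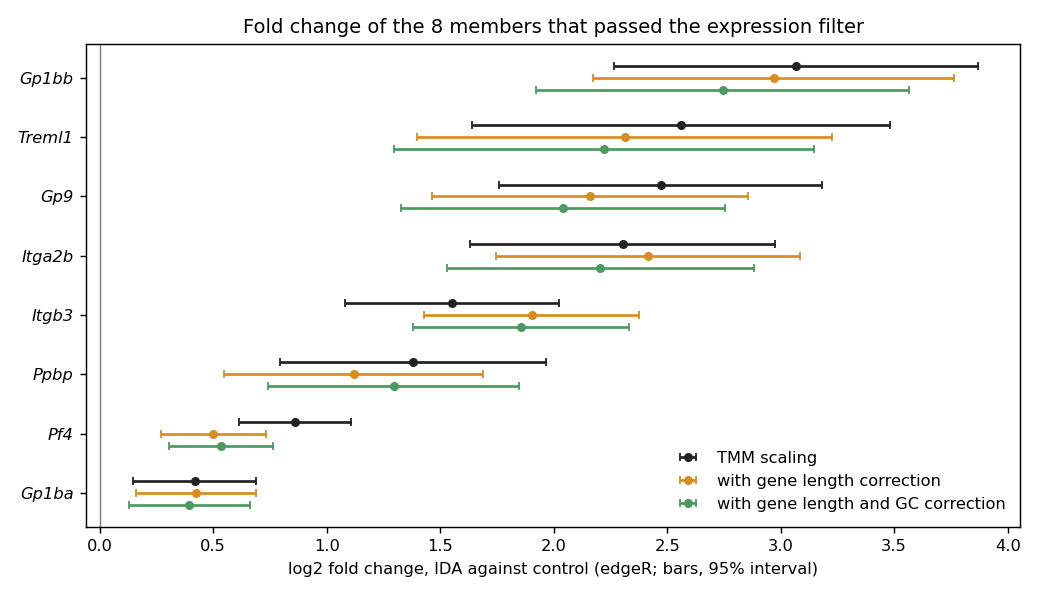
Log2 fold change of the 8 members that passed the filter (horizontal axis, IDA against control) with 95% intervals, as fitted and with corrections for gene length and for gene length and GC content. The intervals of *Gp1bb*, whose rise was part of the choice of members, are a description and not a test. *Gp1bb* stays at 2.74 or more and *Gp1ba* between 0.39 and 0.42, while the length correction lowers *Pf4* and raises *Itgb3*.

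Fold changes in these libraries fell with the length of the gene. With the tested genes ordered by exonic bases and split into 10 groups of 1359, the group of the shortest had a median log2 fold change of 0.34 and that of the longest -0.53. *Pf4* (588 exonic bases), *Gp9* (811) and *Ppbp* (1080) are in the group of the shortest, and *Itgb3* (5779) is in a group with a median of -0.32. With the trend removed, the log2 fold change of *Pf4* was 0.50 (edgeR adjusted p = 0.000626) in place of 0.86, that of *Gp9* 2.16, that of *Ppbp* 1.12 and that of *Itgb3* 1.90 in place of 1.55. All 7 tested members other than *Gp1bb* were called in that fit, as were 55% of tested genes, and *Gp1bb* stood at 2.97.

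**Figure D5:**
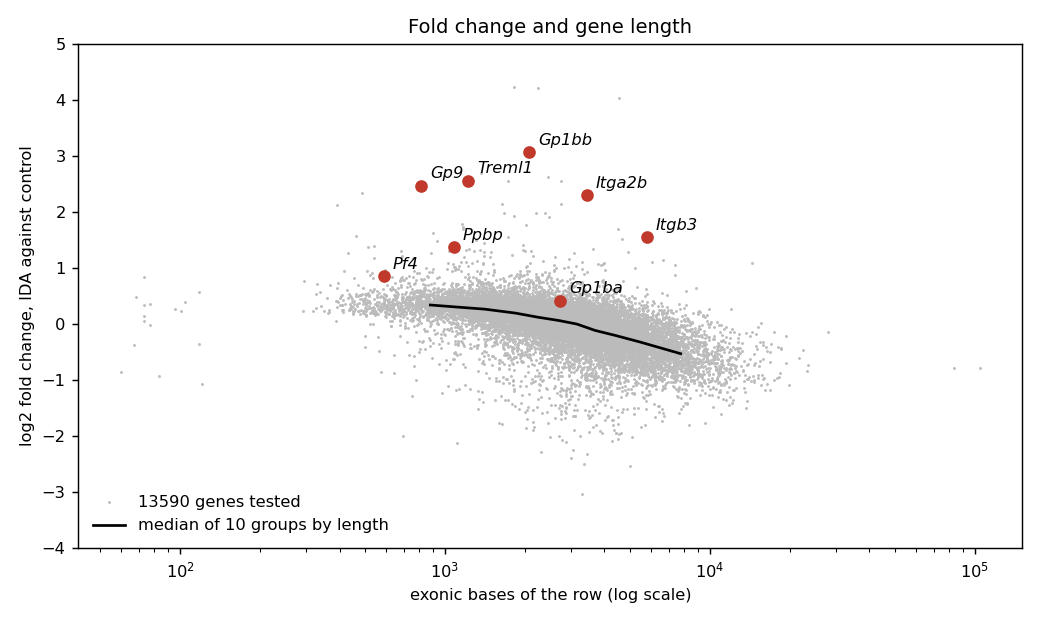
Log2 fold change (vertical axis) of the 13590 tested genes against exonic bases (horizontal axis, log scale), with the median of the 10 groups by length as a line and the 8 members that passed the filter in red. The line falls from 0.34 to -0.53, and each member lies above it.

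The rest of the platelet program was looked up in 4 lists of other genes. Of 12 tested platelet receptors, 7 were higher and 3 lower in IDA mice, beside 35% and 32.5% of all tested genes. Of the 7 that were higher, 5 reached 1 CPM in fewer than 10 control mice and so passed the filter only with the IDA group, where they are high, *P2rx1* and *Gp5* among them. The highest were *P2rx1*, an ATP-gated channel, which went from 1.63 ± 0.957 to 9.90 ± 7.12 CPM (log2 fold change 2.62, edgeR adjusted p = 5.41e-06), and *Gp5*, given above. The lowest were *F2rl3*, a thrombin receptor (log2 fold change -0.59, edgeR adjusted p = 0.0261), and *P2ry1*, an ADP receptor that other heart cells also express and that went from 92.2 ± 11.2 to 64.8 ± 10.3 CPM (log2 fold change -0.51, edgeR adjusted p = 2.25e-05). The median of the list was 0.62.

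Of 10 tested granule genes, 8 were higher and none was lower, beside 35% and 32.5% of all tested genes, and 6 were higher after the length correction, in a fit that called 55% of all genes in either direction. The share of all genes called higher alone in that fit is not given here, so nothing is read from the latter count. *F5*, coagulation factor V, had a log2 fold change of 1.05 (edgeR adjusted p = 0.00558) and *Selp*, P-selectin, which endothelium also makes, 0.94 (edgeR adjusted p = 0.00255). *F5* reached 1 CPM in 9 of 10 control mice and so passed the filter only with the IDA group, where it is high. At the other end *Thbs1*, thrombospondin 1, and *F13a1*, the A chain of factor XIII and also a macrophage gene, had -0.12 (edgeR adjusted p = 0.613) and -0.11 (edgeR adjusted p = 0.187). The median was 0.32.

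Of 18 tested genes of platelet signalling and cytoskeleton, 10 were higher and 1 was lower, beside 35% and 32.5% of all tested genes. After the length correction 15 were higher and none was lower, beside 55% of all genes called in either direction. With no share of that fit by direction, nothing is read from these corrected counts. *Lat*, an adaptor that T cells also use, rose from 0.761 ± 0.291 to 1.91 ± 0.929 CPM (log2 fold change 1.34, edgeR adjusted p = 0.000212), but reached 1 CPM in 2 control and 9 IDA mice and so passed the filter only with the group where it is high. The next, *Bin2*, had 1.32 (edgeR adjusted p = 3.12e-05). *Nbeal2*, needed for α granules, was the gene called lower, at -0.22 (edgeR adjusted p = 0.0242), and *Syk*, a kinase of many blood cells, was at -0.02 (edgeR adjusted p = 0.743). The median was 0.31.

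Of 9 tested transcription factors of the megakaryocyte line, 3 were higher and 4 lower, shares near the 35% and 32.5% of all tested genes. In the fit with the length correction, which called 55% of all genes in either direction, 2 were lower. *Nfe2*, which drives platelet release, went from 2.10 ± 1.01 to 8.18 ± 4.40 CPM (log2 fold change 1.98, edgeR adjusted p = 7.31e-06), and *Lyl1*, a helix-loop-helix factor, had 0.67 (edgeR adjusted p = 2.11e-06). *Nfe2* reached 1 CPM in 8 of 10 control mice and so passed the filter only with the IDA group, where it is high. *Mecom*, also an endothelial gene, was lowest at -0.64 (edgeR adjusted p = 3.12e-05), followed by *Fli1*, which endothelium expresses too, at -0.28 (edgeR adjusted p = 0.0163). *Gata1* did not pass the filter, at 0.159 ± 0.156 CPM in control and 1.33 ± 0.896 CPM in IDA mice, and is named here after its values were seen.

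For each of the 8 members that passed the filter, all other tested genes were ranked by how closely their deviations from the group means followed the member over the 20 mice. Of the 24 nearest places, 3 for each of the 8 members, 8 were filled by other members and 9 by genes of the 4 lists. *Gp9* and *Itga2b* were among each other's 3 nearest genes (r = 0.95), *Gp1bb* was nearest to *P2rx1* (0.95), *Itgb3* to *Plek* (0.95), a substrate of protein kinase C in platelets, and *Pf4* to *Gp1bb* (0.93). *Gp1ba* stood apart, with r of 0.77 to *Cstf2t*, 0.76 to *Lat* and 0.76 to *Lrrc3b*, and its correlation with *Itga2b* was 0.52. These values of r are descriptions over mice that share library and scaling.

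Markers of other blood cells moved in the same comparison. Of 13 erythroid markers, 9 had a row and 4 were tested. Of these 4, 3 were higher and 1 was lower in IDA mice, beside 35% and 32.5% of all tested genes. *Hba-a1* and *Hba-a2* were listed at 0 in every library. The rows of these 2 genes span nearly the same interval (chr11:32283672-32297303 and chr11:32283675-32297310). Pairs that overlap more than 1 gene were not counted, so these zeros do not show that the RNA was absent. Without it, the summed level of the 9 markers was 109 to 170 CPM in control and 164 to 614 CPM in IDA mice. The mean log2 CPM of the 4 tested markers was at most 3.78 in control and at least 4.02 in IDA mice, so it separated the groups as the diet did. Within IDA mice the mean log2 CPM of the 4 tested markers had r of -0.04 with *Itga2b* (permutation p = 0.917, adjusted p = 0.951) and rho of 0.25 (permutation p = 0.494), and r of 0.02 without the 2 most extreme mice for *Itga2b*. With that mean as a covariate, which cannot be fully told apart from diet, *Itga2b* had a log2 fold change of 2.32 (edgeR adjusted p = 0.000472) and *Gp1bb* 2.77, and 6 of the 7 tested members other than *Gp1bb* were called, where 55.2% of tested genes were, *Gp1ba* being at 0.40 (edgeR adjusted p = 0.115).

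Of 8 neutrophil markers 7 had a row and 3 were tested. These reached 1 CPM in only 5 or 6 of 10 control mice and passed the filter with the IDA group, where they are high, so nothing is read from all 3 being called higher. The 7 markers had summed levels of 1.57 to 16.8 CPM in control and 5.58 to 125 CPM in IDA mice. The mean log2 CPM of the 3 tested had r of 0.74 with *Itga2b* in control mice (permutation p = 0.0202, adjusted p = 0.0471), with rho 0.75 (permutation p = 0.0164), and 0.71 without the 2 most extreme mice, where each run holds 5 control mice and gave no value of its own. In IDA mice r was 0.25 (permutation p = 0.477, adjusted p = 0.636) and rho 0.41 (permutation p = 0.25). Of 7 lymphocyte markers 4 were tested and called higher, beside 35% of all tested genes, and 3 of these 4 likewise passed the filter only with the IDA group. The 7 stood at 4.90 to 10.6 CPM summed in control and 7.55 to 35.6 CPM in IDA mice, and the mean of the 4 tested had r with *Itga2b* of 0.42 in IDA mice (permutation p = 0.237, adjusted p = 0.349), with rho 0.48. Of the macrophage markers, relevant to *Pf4*, 6 of 13 tested were higher and 5 lower. Of the endothelial markers, relevant to *Itgb3*, 4 of 8 were higher and 3 lower. Beside 35% and 32.5% of all tested genes, nothing is read from these counts. In control and IDA mice the macrophage markers summed to 735 to 846 and 703 to 864 CPM, and the endothelial markers to 1796 to 1964 and 1702 to 1948 CPM. For macrophage and endothelial markers, r with *Itga2b* in IDA mice was 0.09 and 0.18 (permutation p = 0.808 and 0.626, adjusted p = 0.87 and 0.73), with rho -0.02 and 0.38. The part of neutrophils and lymphocytes in the members' differences was not tested.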

How the data were processed

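The table analysed holds raw counts of read pairs per gene, deposited by the authors for 20 hearts. Per the labels, the methods and the file header, poly(A)-selected paired-end reads were aligned with STAR to mm10, duplicates were removed, and exons were counted with featureCounts 1.4.5-p1, without strand and without pairs that overlap more than 1 gene. Library totals (6682177 to 8960688 pairs) limit precision for *Gp6*, *Gp1bb* and *Treml1*.

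Here, the 13590 genes that reached 1 CPM in no fewer than 10 mice were compared between diets in edgeR 4.0.16 (TMM, quasi-likelihood F test, Benjamini-Hochberg), with SE from the F statistic, and in DESeq2 1.42.0 as an alternative. *Gp6*, under the filter, was compared by permutation. Other alternatives covered scaling, filter, gene length and GC content (loess offset per library), library size, erythroid markers, each mouse, replicate block and, chosen after seeing the data, the run of library numbers. Per-sample columns not mapped numbered 0. The study left out 1 mouse of each group for sample contamination. Which mice these were is not given in the sources used here, so all 20 were kept and 2 of the libraries analysed are ones it judged contaminated. No 2 mice of a group were alike within sampling noise (chi-square per degree of freedom at least 1.50).

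Members and gene lists were chosen with earlier results of these data known. Besides members, the text names the 2 highest and 2 lowest genes of each list by log2 fold change, genes that overlap a member and genes most correlated with a member. Values of some single genes of the erythroid list are not reported here.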

Additional observations from a re-analysis of the deposited data

How the results depend on the processing

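Every log2 fold change of the 8 tested members kept its direction under all 34 alternatives. *Gp1ba* lost its call in 2 of them, with the erythroid marker mean as a covariate (0.40) and in the first run of library numbers alone (0.25). The other 6 members tested, *Gp1bb* left out, were called under every alternative, the highest edgeR adjusted p being 0.0119 for *Ppbp* with the erythroid covariate. *Treml1* is among these 6, and it passed the filter only with the IDA group. Leaving out each mouse in turn gave log2 fold changes of 2.87 to 3.22 for *Gp1bb*, 0.32 to 0.47 for *Gp1ba* and 2.15 to 2.49 for *Itga2b*, and a difference of 0.979 to 1.35 CPM for *Gp6* (permutation p at most 0.013). The number of genes called over the whole table was 9176, and 5906 in the second run of library numbers alone, where 8 mice were fitted. In that run the number of platelet receptors called lower was 1 in place of 3.

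Replicate numbers are shared by the groups in the labels, and the mice were treated as unpaired. Deviations of same-numbered mice correlated at -0.28 to 0.26, and 3 of 10 pairs were above 0.1. These correlations cannot show whether the mice were paired. With the number as a replicate block, 8912 genes and all 7 tested members other than *Gp1bb* were called. At 0 to 29 read pairs in a control library, the levels of *Gp6*, *Gp1bb* and *Treml1* in a single control mouse carry a large counting error.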
